A study of Mus musculus with 231 samples.

Results

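The 7 Ctrl mice of the training cohort were bled before and 1 month after injection of poly(I:C), and mature microRNAs (miRNAs) were sequenced from their peripheral blood mononuclear cells (PBMC). The comparison takes the 14 Ctrl libraries of months 0 and 1 out of the 231 samples of the series and pairs them by mouse. It addresses what the injections and a month of time do to blood miRNAs when the Cbfb-MYH11 (CM) fusion gene is not induced. All mice were C57BL/6, 6 to 8 weeks old at injection, and received poly(I:C) at 14 mg/kg per dose every other day for 7 doses. The labels describe Ctrl mice as age-matched littermates without the transgene, whereas CM mice carry Cbfb56M/+ and Mx1-Cre, a recombinase gene driven by an interferon-responsive promoter. The genotype labels of the Ctrl mice, which the labels do not explain, were CW in 4 mice (3339, 3342, 3346 and 3349), HW in 2 mice (3335 and 3340) and WT in mouse 3350. The study's methods count Cbfb56M/+ mice lacking Cre among its controls, and which Ctrl mice carried an allele cannot be read from these codes. Of the Ctrl mice, 5 were male and 2 were female. The CM mice, with which they are compared below, were all labelled CHW and had more females than males. Sex was therefore not balanced between the arms, and its part in their differences was not tested. No group was left uninjected, so the effect of poly(I:C) and that of a month of age cannot be told apart, and since month 1 was the first draw after injection, nothing is known of the days between.

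Poly(I:C) is a synthetic double-stranded RNA that immune cells sense as a virus, and it triggers a burst of type I interferon that drives blood stem cells out of rest and switches on the Mx1 promoter. A miRNA is a short RNA that pairs through its seed, bases 2 to 8 from the 5′ end, with messenger RNAs and lowers their output. Blood cell types carry different miRNAs, so levels in a mixed sample such as PBMC follow its cell composition as well as regulation within cells. Among known examples, miR-142 is made across blood lineages, miR-150 is high in mature lymphocytes, miR-223 in myeloid cells, and miR-451a, miR-144 and miR-486 in red cell precursors and red cells. miR-155, miR-146a and miR-21a are induced by inflammatory signals, and miR-126 is known from endothelium, megakaryocytes and blood stem cells.

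The miRNAs named for the comparison were the 5 with the lowest p in each direction with a mean of at least 10 CPM (counts scaled to a common library size), both arms of miR-126a and the 5 most abundant miRNAs, 16 in all because miR-142a-5p was named under 2 of these heads. RefSeq mature sequences (GRCm38.p6) were found for 13 of the 16. The 9 below are those on which the results turn, with the seed in capitals, and no seed occurs in more than 1 of them.
miR-6412: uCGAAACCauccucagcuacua
miR-3968: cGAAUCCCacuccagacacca
miR-3963: uGUAUCCCacuucugacac
miR-5100: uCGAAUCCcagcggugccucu
miR-142a-5p: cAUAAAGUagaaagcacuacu
miR-296-3p: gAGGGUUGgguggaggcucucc
miR-296-5p: aGGGCCCCcccucaauccugu
miR-25-5p: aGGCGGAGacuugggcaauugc
miR-126a-3p: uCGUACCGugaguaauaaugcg
The first 5 were the miRNAs with the lowest p among those higher at month 1, the next 3 belong to the lower ones together with miR-34c-5p and miR-6238, and miR-126a-3p is the miRNA the study followed. In mouse genome NCBIM37 (mm9), miR-6412 matched chr10:122085468-122085489 on the plus strand, where the annotation (GENCODE vM1) holds no gene. miR-3968 matched chr11:115309283-115309303 on the minus strand, opposite to an exon of 4933422H20Rik. miR-3963 matched chr3:150686803-150686821 on the minus strand, outside other annotated genes, and miR-5100 matched chr11:60542200-60542220 on the plus strand in an intron of Smcr7. miR-142a-5p matched chr11:87570369-87570389 on the plus strand in an intron of the noncoding A430104N18Rik, and miR-126a-3p matched chr2:26446922-26446943 on the plus strand within Egfl7. The arms of miR-296 matched chr2:174092559-174092580 (3p) and chr2:174092594-174092614 (5p) on the minus strand, and miR-25-5p matched chr5:138606598-138606619 on the minus strand within an exon of Mcm7.

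The 14 libraries held 4067363 to 6334849 counts and 960 to 1065 miRNAs with a count above 0. Month 1 libraries differed from month 0 libraries of the same mouse by 0.05 ± 0.20 (SD, n = 7) in log2 total count (exact two-sided sign-flip permutation test, p = 0.5, with 0.0156 the smallest p that 7 mice allow). The PBMC label was checked against miR-142a-3p at 23064 to 45972 CPM, miR-150-5p at 27454 to 59404 CPM and miR-223-3p at 4847 to 26149 CPM over the 14 libraries. All these blood markers were abundant. By contrast, members of the imprinted Dlk1-Dio3 cluster, which is active in embryo and brain, summed to between 3.17 and 33.7 CPM in any library.

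No miRNA passed the threshold between month 0 and month 1 in Ctrl mice. Of 476 miRNAs tested by edgeR's quasi-likelihood test with mouse as a block, 0 (0%) had a Benjamini-Hochberg (BH) adjusted p under 0.05. An unadjusted p under 0.05 was found for 46 miRNAs (9.66%), of which 13 (2.73%) were higher and 33 (6.93%) were lower at month 1. DESeq2 called 4 miRNAs on the same libraries, which were miR-6412, miR-34c-5p, miR-6238 and miR-6538. The fit with no mouse block called 3, which were the same less miR-6238. A fit over all 76 Ctrl libraries of months 0 to 10, which estimates the spread from more draws, called 13 for month 1, with 1 higher (miR-6412) and 12 lower, among the latter miR-34c-5p, miR-296-5p, miR-25-5p, miR-144-5p and 3 of the miR-486 forms. miR-6538, named because these fits called it, was 15.3 ± 12.9 CPM (SD, n = 7) at month 0 and 2.38 ± 0.82 CPM (n = 7) at month 1, with a log2 fold change of -2.28 ± 0.60 (SE, BH-adjusted p = 0.477).

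The intervals give the size of change that 7 mice could have missed. The median absolute log2 fold change was 0.21, and the 95% interval of the change lay within a 2-fold change in either direction for 348 of 476 miRNAs (73.1%). Among the 169 miRNAs at a mean of 100 CPM or more this held for 81.7%. For the remaining miRNAs the interval held a change of more than 2-fold. The changes of the individual mice had little in common. Across the 476 miRNAs, which share libraries and scaling, Pearson's r between the changes of pairs of mice ranged from -0.17 to 0.42 with a median of 0.05.

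The miRNA with the clearest separation was miR-6412. Its level was 32.2 CPM in the lowest, 37.2 in the median and 45.2 in the highest mouse at month 0, and 57.99, 81.6 and 217 CPM at month 1. Every month 1 library lay above every month 0 library, which was the case for 1 of the 476 miRNAs (0.21%), and the level was higher in 7 of 7 mice. The log2 fold change was 1.27 ± 0.21 (SE, 95% interval 0.80 to 1.75, n = 7 mice), with a BH-adjusted p of 0.0919 in the edgeR test. It was called in 9 of 18 other settings, in which the log2 fold change lay between 1.10 and 1.41 and the adjusted p between 1.9e-06 and 0.357. Mouse 3342 had the highest level at month 1.

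The other miRNAs with low p on the higher side had smaller differences. miR-3968 went from 306, 403 and 529 CPM (lowest, median, highest) at month 0 to 436, 739.9 and 1432 CPM at month 1, with a log2 fold change of 0.72 ± 0.19 (SE). miR-3963 went from 263, 726 and 892 CPM to 607, 1143 and 1893 CPM, a log2 fold change of 0.70 ± 0.19. miR-5100 went from 129.98, 185 and 239 CPM to 211, 276 and 485 CPM, a log2 fold change of 0.63 ± 0.20. The months overlapped for all these miRNAs, although miR-3968 and miR-5100 were higher at month 1 in 7 of 7 mice and miR-3963 in 6 of 7, with mouse 3340 the exception. The fifth was miR-142a-5p, the blood lineage miRNA, which went from 35699.6, 43609.7 and 55802 CPM to 48318, 57719 and 67627 CPM, a log2 fold change of 0.34 ± 0.11, and was higher in 7 of 7 mice. The BH-adjusted p was 0.477 for each of the 4 in the edgeR test. A higher level in all 7 mice was found for 10 of the 476 miRNAs (2.1%).

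**Figure D1:**
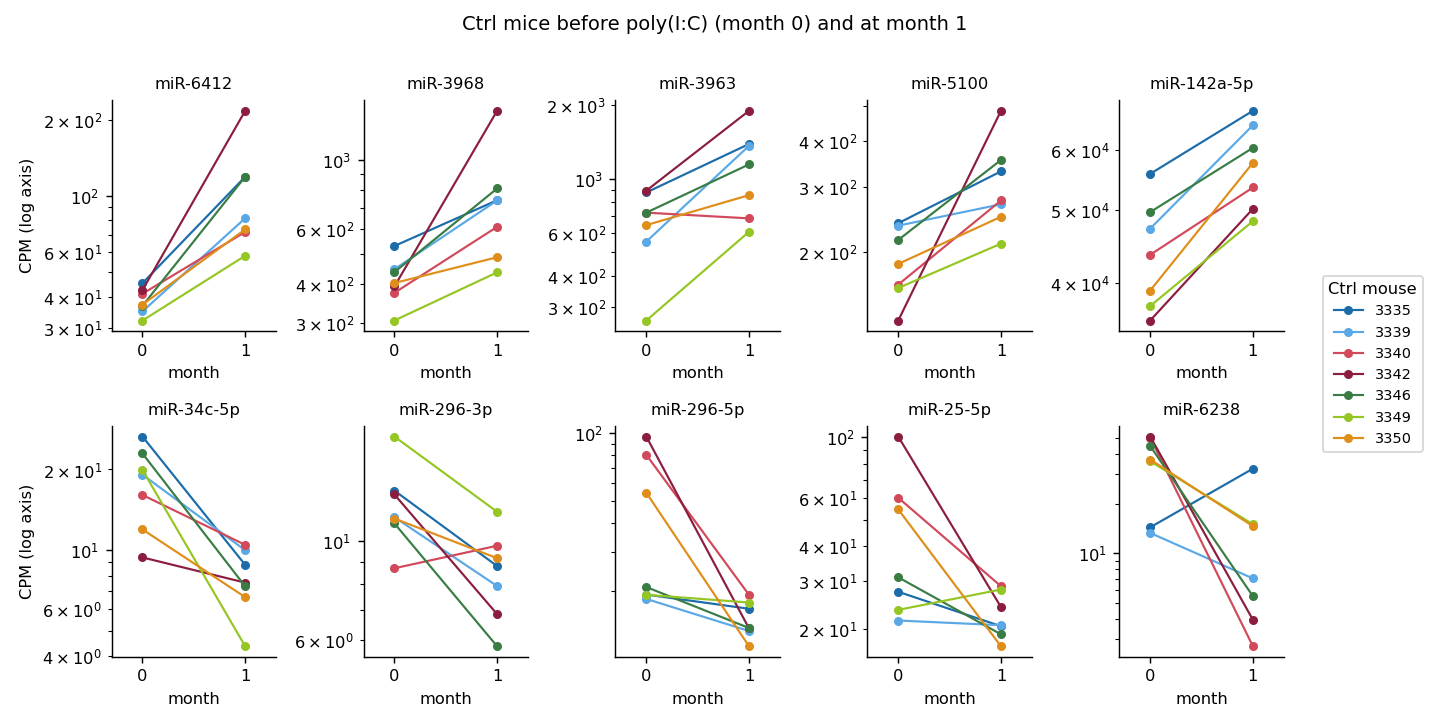
Levels of the 10 miRNAs of lowest p at a mean of 10 CPM or more (5 in each direction) in the 7 Ctrl mice. Each line is 1 mouse from month 0 (before poly(I:C)) to month 1, on a log axis of CPM. Only for miR-6412 do all points at month 1 (57.99 to 217 CPM) lie above all points at month 0 (32.2 to 45.2 CPM), and miR-296-5p and miR-25-5p start high in mice 3340, 3342 and 3350.

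Of the lower miRNAs, miR-34c-5p, a member of the miR-34 family that p53 activates, was lower at month 1 in 7 of 7 mice. It was 9.38, 19.1 and 26.6 CPM (lowest, median, highest) at month 0 and 4.37, 7.55 and 10.5 CPM at month 1. The months overlapped only through mouse 3342, whose month 0 level of 9.38 CPM was below the month 1 levels of mice 3339 and 3340. The log2 fold change was -1.21 ± 0.25 (SE, 95% interval -1.78 to -0.65, BH-adjusted p = 0.23 by edgeR), with adjusted p between 0.000723 and 0.546 in 18 other settings. The more abundant miR-34a-5p had a log2 fold change of -0.16 ± 0.15.

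Both arms of miR-296, made from a precursor in the imprinted Gnas region, were on the lower side. miR-296-3p was 8.70, 11.3 and 17.2 CPM at month 0 and 5.82, 8.80 and 11.6 CPM at month 1, lower in 6 of 7 mice, with a log2 fold change of -0.56 ± 0.17. miR-296-5p was 18.5, 20.9 and 96.7 CPM at month 0 and 11.5, 13.8 and 19.3 CPM at month 1, lower in 7 of 7 mice, with a log2 fold change of -1.27 ± 0.38. The 3p arm differed by a similar amount in most mice, whereas the 5p arm was carried by mice 3340, 3342 and 3350, at 80.3, 96.7 and 54.6 CPM before injection against 18.5 to 20.9 CPM in the other 4. miR-25-5p, the minor arm of a miRNA of the miR-106b-25 cluster, was 21.5, 30.9 and 100.7 CPM at month 0 and 17.3, 20.6 and 28.6 CPM at month 1, with a log2 fold change of -0.87 ± 0.29. It was highest at month 0 in the same 3 mice and was lower at month 1 in 6 of 7. miR-6238 was 13.3, 36.9 and 50.9 CPM at month 0 and 2.73, 7.03 and 32.5 CPM at month 1, with a log2 fold change of -1.94 ± 0.65, and mouse 3335 alone went the other way. The BH-adjusted p of these 4 was 0.477 in the edgeR test, and 9 of 476 miRNAs (1.89%) were lower in all 7 mice.

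miR-126a-3p did not pass the threshold in Ctrl mice. It was 91.4, 116.3 and 444 CPM (lowest, median, highest) at month 0 and 85.9, 103.5 and 129.9 CPM at month 1. Mice 3340 and 3342 were at 412 and 444 CPM before injection, mouse 3350 was at 182 CPM, and the other 4 were between 91.4 and 116.3 CPM. The log2 fold change was -0.69 ± 0.37 (SE, 95% interval -1.53 to 0.16, BH-adjusted p = 0.562 by edgeR), and without mice 3340 and 3342, a choice made after seeing the data, it was -0.08 (BH-adjusted p = 0.805). miR-126a-5p was 37.4, 66.1 and 89.9 CPM at month 0 and 44.6, 51.8 and 77.8 CPM at month 1, with a log2 fold change of -0.25 ± 0.23 (BH-adjusted p = 0.675).

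The erythroid miRNAs moved with the same mice. The 7 listed miRNAs (both arms of miR-144, miR-451a and the miR-486 forms) summed to 137292 CPM in mouse 3340, 261333 CPM in mouse 3342 and 76722 CPM in mouse 3350 at month 0, against 31204 to 61733 CPM in the other 4. At month 1 the sums were 28313 to 69678 CPM in the 7 mice, and in mouse 3342 the month 1 sum was 0.108 of its month 0 sum. In mouse 3349 the month 1 sum was 1.94 times its month 0 sum, and in mice 3335, 3339 and 3346 it was 1.13, 1.16 and 1.00 times. Of the 7 erythroid miRNAs tested, 6 had a log2 fold change below 0. Their median was -1.08, beside a median of -0.01 over all tested. An unadjusted p under 0.05 was found for 3, all lower, beside 33 of 476 lower (6.93%) over all tested. All 3 were miR-486 forms (miR-486a-5p, miR-486a-3p and miR-486b-5p). The values of miR-486a rest on the counting. In the second count described below, miR-486a-5p had the same values as miR-486b-5p, with a month 0 median of 12239 CPM against 69.4 CPM in the main counts and a log2 fold change of -0.72 ± 0.30 against -1.25 ± 0.46. There miR-486a-3p had -0.67 ± 0.39 (unadjusted p = 0.113) against -1.55 ± 0.65. miR-451a alone went from 183932 to 15216 CPM in mouse 3342. In PBMC, fewer cells of a type and less RNA per cell cannot be told apart. The part of these miRNAs in the values of miR-126a-3p, miR-296-5p and miR-25-5p was not tested.

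**Figure D2:**
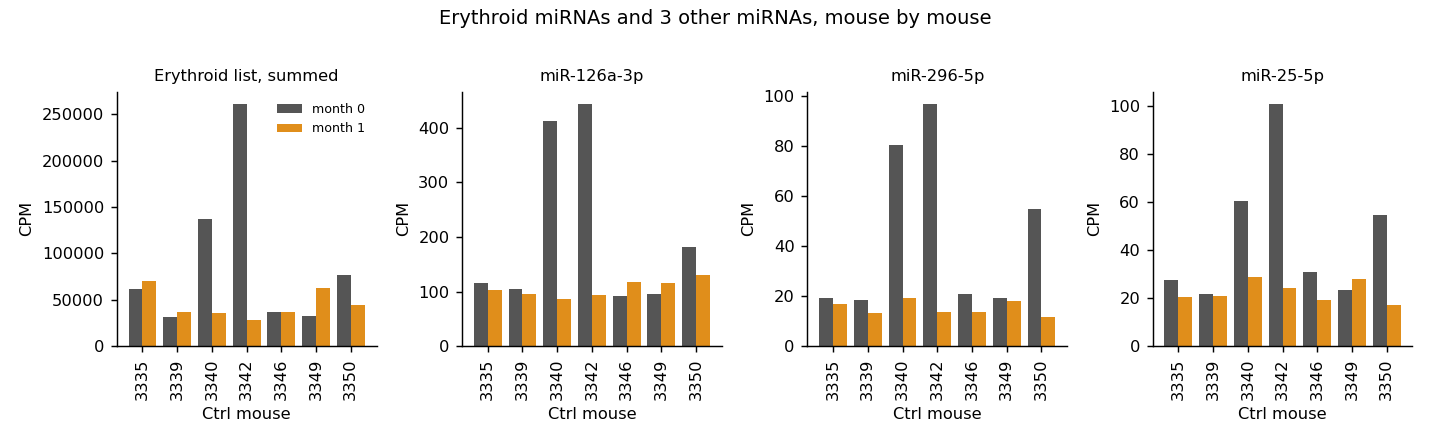
Summed CPM of the 7 erythroid miRNAs and CPM of miR-126a-3p, miR-296-5p and miR-25-5p in each Ctrl mouse, with gray bars for month 0 and orange bars for month 1. Mice 3340 and 3342, at 137292 and 261333 CPM of erythroid miRNAs before injection, also hold the highest month 0 levels of the other 3 miRNAs.

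The month 0 libraries of mice 3340 and 3342 were the only Ctrl libraries of that month labelled G5, a number in the sample titles that the labels do not explain. The other month 0 library labelled G5 was that of CM mouse 3368. It held the highest month 0 level of the 7 CM mice for miR-296-5p (110.3 CPM, others 18.7 to 62.7), miR-25-5p (45.2 CPM, others 20.9 to 27.4) and miR-126a-3p (186 CPM, others 107.8 to 145.9). At month 1, G5 stood on the libraries of Ctrl mice 3335, 3339 and 3350, whose erythroid sums were 69678, 36299 and 43853 CPM. It also stood on those of CM mice 3341 and 3370, with miR-25-5p at 25.7 and 26.8 CPM. Neither held the highest month 1 level of the CM mice for miR-296-5p, miR-25-5p or miR-126a-3p. Whether the G number had a part in the month 0 levels of mice 3340 and 3342 was not tested. No mouse had the same G number at both draws. Without mice 3340 and 3342 the edgeR test called 2 of 478 miRNAs, miR-6412 (log2 fold change 1.18, BH-adjusted p = 0.0401) and miR-8117, both higher. In that fit miR-34c-5p had a log2 fold change of -1.49 (BH-adjusted p = 0.0948), miR-296-5p of -0.77 and miR-25-5p of -0.57.

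Lists of miRNAs named for pathways, cell types and genomic clusters gave no called member at month 1 in the edgeR test of the 14 libraries. Erythroid miRNAs, miR-25-5p and miR-34c-5p were called in the fit over all 76 Ctrl libraries, as given above. DESeq2 and the fit with no mouse block also called miR-34c-5p. With no filter on low counts, which called 35 of 1598 miRNAs, further list members were called. Among them were let-7a-5p, let-7c-5p, let-7f-5p, miR-100-5p, miR-29b-3p and miR-9-3p. Of the 12 tested miRNAs of the inflammation and interferon list, 0 had an unadjusted p under 0.05, and 6 were above and 6 below 0 with a median log2 fold change of 0.02. miR-155-5p, induced in activated macrophages and lymphocytes, was 2304 to 4597 CPM at month 0 and 1639 to 4068 CPM at month 1 (log2 fold change -0.21 ± 0.19, SE). miR-146a-5p, a brake on Toll-like receptor signaling, was 29927 to 52729 CPM and 19878 to 61200.0 CPM (-0.04 ± 0.21). miR-21a-3p had the largest value of the list on the higher side, 0.50 ± 0.22, in 6 of 7 mice. The 95% interval of the log2 fold change was -0.65 to 0.22 for miR-155-5p and -0.52 to 0.43 for miR-146a-5p.

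Lymphoid and myeloid lists held 1 miRNA at an unadjusted p under 0.05, beside 46 of 476 (9.66%) over all tested. The 4 mature lymphocyte miRNAs had a median log2 fold change of -0.01, with miR-342-5p at -0.44 ± 0.18 the member at that level, and the 6 miRNAs of the miR-181 list had a median of -0.05. Of the myeloid list 2 were tested, both below 0 with a median of -0.23, and miR-223-3p was at -0.37 ± 0.39 (95% interval -1.27 to 0.52). The medians were 0.21 for the 2 arms of miR-142a, -0.01 for the 10 miRNAs of the miR-17-92 cluster, -0.21 for the 6 of the miR-106b-25 cluster, -0.09 for the 3 of the miR-183 cluster and -0.07 for the 8 stem and progenitor miRNAs tested. In the latter list miR-100-5p, at -1.50 ± 0.62, was the member with an unadjusted p under 0.05.

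Lists for other tissues were low or moderate. The epithelial list of 7, led by the miR-200 family, had a median log2 fold change of -0.50. In it miR-200b-3p (-0.68 ± 0.28) and miR-200c-3p (-0.50 ± 0.21) were at an unadjusted p under 0.05, beside 33 of 476 lower (6.93%) over all tested. The summed level of the list was 1675 to 3256 CPM at month 0 and 1194 to 2549 CPM at month 1. Medians were -0.34 for the 3 vessel wall miRNAs tested, -0.72 for the 3 of the liver list, -0.29 for the 2 of the muscle list and 0.15 for the 3 neural and endocrine miRNAs, where miR-9-3p (1.76 ± 0.74, at 1.44 ± 1.32 CPM at month 0) had an unadjusted p under 0.05. In a second count of the same libraries, described below with the abundant miRNAs, miR-9-3p lay on the other side of 0 (-0.36 ± 0.22, unadjusted p = 0.137). The miR-34 list had 2 members tested, both given above. The Sfmbt2 cluster, a large group of repeated miRNAs on mouse chromosome 2, had 27 of 38 tested members above 0 and a median of 0.25, with miR-467d-5p and miR-669a-3-3p at an unadjusted p under 0.05, both higher. Over all tested miRNAs 231 of 476 were above 0 and 13 (2.73%) were higher at that level. Many members are near-identical, and how reads were divided among them was not tested. None of the 37 listed miRNAs of the Dlk1-Dio3 cluster passed the filter on low counts.

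Some abundant miRNAs depended on how the reads were counted. The series holds a second count of the same libraries, deposited as scaled CPM, from which whole reads were recovered. let-7f-5p ranged from 2050 to 100150.0 CPM over the 14 libraries in the main counts, a 48.9-fold range, but from 63077 to 109238 CPM in the second count, a 1.73-fold range. Its log2 fold change was -1.22 ± 1.02 (SE) in the main counts and -0.25 ± 0.15 in the second. let-7a-5p, from which let-7f-5p differs at 1 base, ranged over 12.7-fold in the main counts and 1.66-fold in the second. The sequences are shown because the difference lies outside the seed.
let-7f-5p: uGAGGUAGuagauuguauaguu
let-7a-5p: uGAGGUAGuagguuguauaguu
let-7 miRNAs, which mark differentiated cells, had a median log2 fold change of -0.26 over the 9 tested. miR-29b-3p, of a family that targets collagens and anti-apoptotic genes, was 109.5 to 639.7 CPM at month 0 and 430.3 to 1095 CPM at month 1 in the main counts, with a log2 fold change of 1.40 ± 0.47 (unadjusted p = 0.0157), whereas the second count gave 0.31 ± 0.15 (unadjusted p = 0.0764). The 6 miRNAs of the miR-29 list had a median of 0.11.

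The miRNAs with the lowest p differed in how close the second count came. miR-6412 was called there, with a log2 fold change of 1.26 ± 0.19 (BH-adjusted p = 0.0268), and it was the only call among 470 miRNAs. Log2 fold changes were also close for miR-3968 (0.70 ± 0.15), miR-34c-5p (-1.24 ± 0.25), miR-296-3p (-0.59 ± 0.21), miR-296-5p (-1.30 ± 0.36), miR-25-5p (-0.90 ± 0.29) and miR-126a-3p (-0.70 ± 0.34). The level of miR-3968 was not, with a month 0 median of 1109.7 CPM in the second count against 403 CPM. miR-5100 had 0.29 ± 0.20 and a median of 18.5 CPM at month 0, against 185 CPM in the main counts. miR-3963 had a median of 0.663 CPM at month 0, against 726 CPM in the main counts, and did not pass the filter of the second fit. miR-5099, among the 5 most abundant at 27123 to 80259 CPM in the main counts, was at 120 to 304 CPM in the second. miR-142a-5p had a log2 fold change of 0.49 ± 0.16 and a month 0 median of 19289 CPM, against 0.34 ± 0.11 and 43610 CPM in the main counts. miR-6238 had -1.56 ± 0.61 and 18.2 CPM, against -1.94 ± 0.65 and 36.9 CPM. The levels of miR-3968, miR-3963, miR-5100, miR-5099, miR-142a-5p and miR-6238 therefore rest on the counting. For the abundant miR-21a-5p (0.29 ± 0.15 in the main counts, 0.29 ± 0.12 in the second) and let-7i-5p (-0.15 ± 0.13 and -0.17 ± 0.12) the log2 fold changes were close.

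A stretch of letters, picked from the higher miRNAs, was common to 3 of them. The 6 bases AUCCCA, looked for after the values were seen and on the mature strand only, occur in miR-3968, miR-3963 and miR-5100 as printed above, and in 4 of the 388 tested miRNAs with a sequence (1.03%). The other was miR-191-5p, with a log2 fold change of -0.06. Since the stretch was picked from miRNAs chosen as higher, their direction says nothing about it. For miRNAs with both arms tested, 74 precursors had arms on the same side of 0, which is 59.2% of those tested. Where either arm had an unadjusted p under 0.05, this held for 14 of 18, and miR-296 and miR-486a were the precursors with both arms at that level in the main counts. In the second count miR-486a-3p was not at that level, and miR-486a-5p could not be told apart from miR-486b-5p.

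CM mice had the same injections and were bled at the same times, so the changes of both arms were set side by side in 1 fit of 28 libraries. There 55 of 520 miRNAs (10.6%) were called in CM mice, 31 higher and 24 lower at month 1, and 1 of 520 (0.192%) in Ctrl mice, which was miR-6412 (log2 fold change 1.29, BH-adjusted p = 0.000747). miR-6412 also rose in CM mice, from 33.8, 49.6 and 63.7 CPM (lowest, median, highest) to 50.4, 73.1 and 115.3 CPM, in 7 of 7 mice (log2 fold change 0.76 ± 0.17, BH-adjusted p = 0.00924 by edgeR). The difference between the arms was -0.54 ± 0.24 and did not pass the threshold (BH-adjusted p = 0.201).

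miR-34c-5p fell in CM mice, from 9.84, 13.4 and 21.2 CPM to 2.04, 5.42 and 11.2 CPM, in 7 of 7 mice (log2 fold change -1.27 ± 0.31, BH-adjusted p = 0.0166 by edgeR). Its difference between the arms was -0.07 ± 0.42. miR-296-3p had a log2 fold change of -0.56 ± 0.21 in CM mice (BH-adjusted p = 0.0862). By contrast, the values of miR-3968 (0.30 ± 0.21), miR-3963 (0.01 ± 0.28), miR-5100 (-0.16 ± 0.18) and miR-142a-5p (0.01 ± 0.18) in CM mice did not pass the threshold, and neither did their differences from Ctrl mice, of which that of miR-5100 was the largest (-0.81 ± 0.25, BH-adjusted p = 0.0796).

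The change differed between the arms for 21 of 520 miRNAs (4.04%), with the change in CM mice minus that in Ctrl mice above 0 for 14 and below 0 for 7. miR-126a-3p was 107.8, 124.4 and 186 CPM in CM mice at month 0 and 231, 353 and 449 CPM at month 1, and its change differed by 2.14 ± 0.45 on the log2 scale from that of Ctrl mice (BH-adjusted p = 0.0227 by edgeR). The difference was 1.82 ± 0.34 for miR-126a-5p (BH-adjusted p = 0.0168) and 1.55 ± 0.40 for miR-25-5p (BH-adjusted p = 0.041). At month 1 miR-25-5p was at 92.2 and 78.3 CPM in CM mice 3336 and 3368, and at 25.7 to 36.1 CPM in the other CM mice. The erythroid sum of CM mice was 40542 to 136377 CPM at month 0 and 53405 to 622569 CPM at month 1. The median log2 fold change of the erythroid miRNAs in this fit was 1.19 in CM and -1.05 in Ctrl mice. Their part in the difference of miR-25-5p was not tested. The largest differences above 0 were 4.52 for miR-133a-3p and 4.00 for miR-6546-5p. Their log2 fold changes were 2.44 and 1.28 in CM mice and -2.09 and -2.72 in Ctrl mice. The rest above 0 were miR-375-3p, miR-215-5p, miR-2137, miR-31-5p, miR-499-5p, miR-151-5p, miR-331-3p, let-7g-5p and miR-196b-5p, a HoxA-linked progenitor miRNA. Called below 0 were 7 of 520 miRNAs, and 4 of these were among the 41 Sfmbt2 cluster miRNAs of this fit. Many members of that cluster are near-identical, as given above. The log2 fold change of the 4 was below 0 in CM and above 0 in Ctrl mice. For miR-669a-3-3p it was -1.83 in CM and 0.75 in Ctrl mice, and for miR-466f-3p -0.60 and 0.43. The count of 21 calls depended on single Ctrl mice. It was 0 without mouse 3335, 6 without mouse 3342 or mouse 3346, 8 without mouse 3350, 10 without mouse 3340 and 11 without mouse 3339. Without both mice 3340 and 3342, 2 were called, and the difference was 1.55 for miR-126a-3p (BH-adjusted p = 0.0466) and 1.59 for miR-126a-5p (BH-adjusted p = 0.0562).

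**Figure D3:**
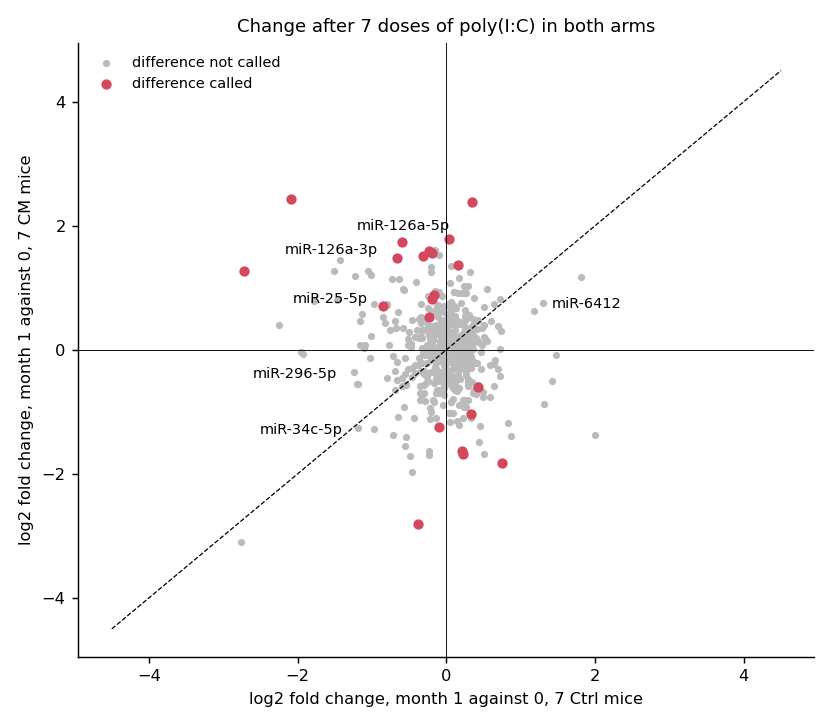
Log2 fold change of month 1 against month 0 for 520 miRNAs in 7 Ctrl mice (x axis) and 7 CM mice (y axis), with the dashed line at equal change and red points for the 21 miRNAs whose change differed between the arms. miR-6412 and miR-34c-5p lie away from 0 on the same side in both arms, and the miR-126a arms lie near 1.5 in CM mice and below 0 in Ctrl mice.

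In later draws of the same Ctrl mice, more miRNAs differed from month 0. These comparisons share the month 0 libraries, and their months are not independent. Between 461 and 484 miRNAs were tested each time. Months 2 to 4 gave 18 (3.78%), 34 (7.3%) and 19 (4.02%) calls, months 5 and 6 gave 53 (11%) and 67 (14.1%), and month 9 gave 150 (31.1%). The share called was 24.7% for month 7, 25.2% for month 8 and 17.9% (84 miRNAs) for the 6 mice of month 10. The counts depended on the fit. Under 5 other fits added after seeing the data, the month 1 count lay between 0 and 13 and those of months 2 to 4 between 6 and 67, 4 and 41, and 6 and 77. For months 5, 7, 8 and 10 they lay between 30 and 83, 72 and 141, 93 and 221, and 79 and 157, while month 6 gave at least 58 and month 9 at most 201 calls. In the fit over all 76 Ctrl libraries month 8 had more calls (221) than month 9 (201). Against the month before, months 2 to 5 gave 6 (1.28%), 8 (1.72%), 2 (0.432%) and 9 (1.88%) calls and month 6 gave 43 (9.01%). Months 7 to 10 gave 0 (0%) by edgeR, with 16, 35, 37 and 88 miRNAs at an unadjusted p under 0.05.

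**Figure D4:**
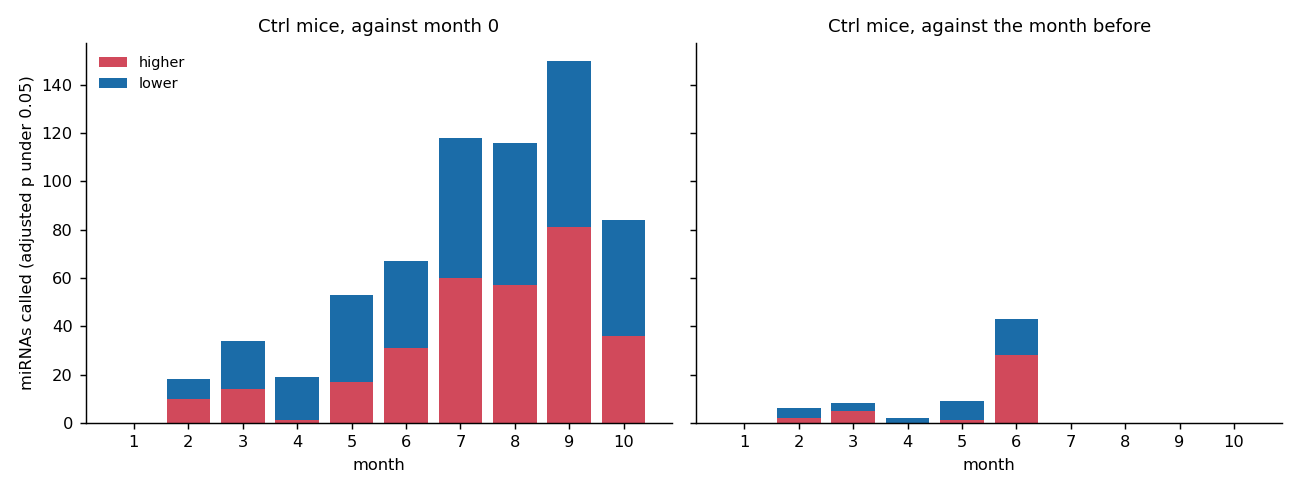
Number of miRNAs with an adjusted p under 0.05 in Ctrl mice at each month, against month 0 (left) and against the month before (right), split into higher (red) and lower (blue). There is no call at month 1, 150 calls at month 9 against month 0, and 43 calls at month 6 against month 5. From month 6 on the sample titles of mouse 3335 conflict, as given in the text.

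miR-6412 had its highest medians in the draws after month 1. They were 37.2, 81.6, 126.5, 124.5, 90.5 and 28.3 CPM from month 0 to month 5. The difference from month 0 was called for month 2 (log2 fold change 1.54, BH-adjusted p = 0.00249 by edgeR) and month 3 (1.65, BH-adjusted p = 2.5e-05), and not for month 4 (1.01, BH-adjusted p = 0.0653). From month 5 to month 10 the median lay between 28.3 and 49.9 CPM, with no call. miR-3968, miR-5100 and miR-3963 had their highest medians at month 2, at 1198, 465 and 3956 CPM, with log2 fold changes of 1.34, 1.19 and 2.28 (BH-adjusted p of 0.0025, 0.0056 and 0.0025 by edgeR). By month 5 they were at 291, 119.8 and 149.6 CPM, and miR-5100 and miR-3963 were then called as lower than at month 0 (-0.73 and -2.18). All 3 were called as lower at month 10. These are values of the main counts. The levels of the 3 miRNAs rest on the counting, as given above, and no later month was compared in the second count.

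The lower miRNAs took different courses. miR-296-3p had medians of 11.3, 8.80 and 4.72 CPM for months 0 to 2 and of 1.42 CPM for month 9, and was called at every month from 2 to 10, with log2 fold changes from -1.21 (month 2) to -2.88 (month 9). Its counts at these levels are low. miR-296-5p was called from month 2 to month 7 and at month 9. miR-34c-5p had its lowest median but one, 7.55 CPM, at month 1 and was called at months 5 and 8 only. miR-25-5p and miR-126a-3p were not called at any month in the edgeR fits of that month against month 0, with medians back at 30.8 and 140.2 CPM at month 4. The erythroid sum had medians of 61733, 36921 and 21426 CPM for months 0 to 2, of 68035 CPM for month 4 and of 182591 CPM for month 8. miR-142a-5p had a log2 fold change of -0.69 at month 7 and -1.13 at month 10, both called, against 0.34 at month 1.

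**Figure D5:**
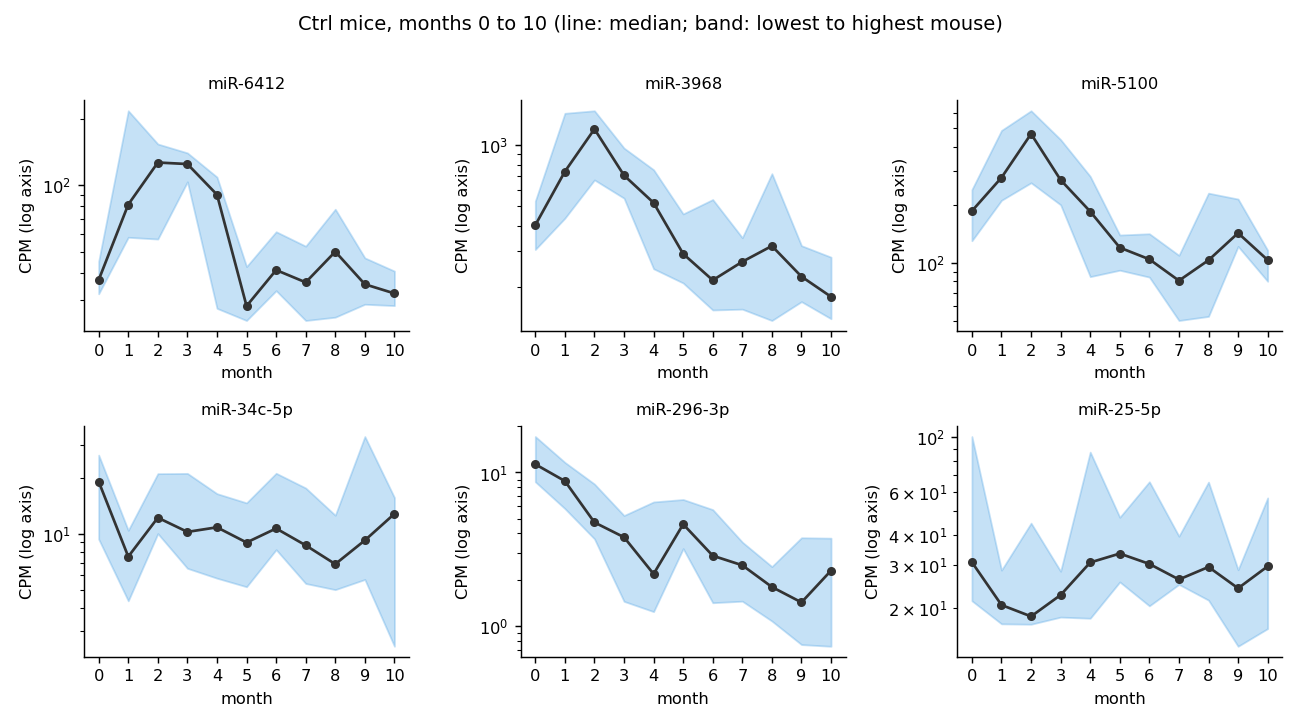
Levels of 6 miRNAs in Ctrl mice from month 0 to month 10 in the main counts, with the median as a line and the lowest to highest mouse as a band, on log axes of CPM. miR-6412 has medians of 81.6 to 126.5 CPM at months 1 to 4 and of 28.3 CPM at month 5, and miR-296-3p goes from 11.3 CPM at month 0 to 1.42 CPM at month 9. The conflict in the sample titles of mouse 3335, given in the text, touches months 6 to 10.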

How the data were processed

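Mature miRNA reads were counted in PBMC of 7 Ctrl and 7 CM mice at months 0 and 1, and of Ctrl mice to month 10. The authors trimmed adapters with cutadapt and aligned reads with Bowtie, with SAMtools and edgeR also named in the submitters' processing notes. The study's methods name mm9, the submitters' processing notes GRCm38. The authors deposited raw counts of mature miRNAs, and separately a signal of TMM-scaled CPM from another counting (settings not given in the sources used here), in which 100% of values were whole multiples of 1 read within 0.01 read. Groups came from the labels. Lists, members and the rule for naming miRNAs (lowest p in each direction at 10 CPM or more, the 5 most abundant, miR-126a) were chosen with earlier results of these data known.

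Counts were tested with edgeR 4.0.16 (R 4.3.3), TMM, filterByExpr, quasi-likelihood F test, two-sided, with mouse as replicate block, since both draws came from the same animal. Deviations from the month means correlated between draws of a mouse at -0.22 to 0.08. The arms were compared by the interaction of arm and month. Intervals used the F statistic and its degrees of freedom. Printed CPM are TMM-scaled over all 129 training libraries. Alternatives used DESeq2 1.42.0 and limma 3.58.1 on log2(CPM + 1). Fits were also run on simulated counts with known changes, where the paired fit had a mouse effect common to both draws. The correlations above differ from that setting, so the run says little about the mouse block in these data. Tables used Python 3.11.15 (scipy 1.17.1). RefSeq names matched 388 of 476 tested miRNAs. Positions come from exact matches of RefSeq mature sequences to NCBIM37 with GENCODE vM1. The recovered reads, the fit without mice 3340 and 3342 and the other fits of later months were chosen after seeing the data. The validation cohort was not used here, since its labels do not say which draw preceded the injections.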

Additional observations from a re-analysis of the deposited data

Results flagged for a closer look

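In the month 0 libraries miR-3963 was at 263 CPM in mouse 3349, apart from the other 6 Ctrl mice at 553 to 892 CPM. Among 32 tests for such a stray sample this was the 1 that met Dixon's limit, which chance meets in about 1 of 20 groups. miR-3963 was also at 0.663 CPM (median of month 0) in the second count. The change from month 0 to month 1 differed between CM and Ctrl mice for miR-126a-3p (2.14 on the log2 scale), miR-126a-5p (1.82) and miR-25-5p (1.55), with BH-adjusted p of 0.0227, 0.0168 and 0.041 in the edgeR interaction test. In all 3 the month 0 levels of Ctrl mice 3340 and 3342 were among the 3 highest of the 7.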

How the results depend on the processing

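The 10 miRNAs with the lowest p at a mean of 10 CPM or more kept their direction in every fit that tested them. They were picked from the same libraries that these fits reuse, so their direction gives no separate support. Calls at month 1 numbered 0 in the main test, with each mouse left out in turn, with raw library sizes and with a minimum of 10 counts in 7 libraries. They numbered 3 with no replicate block (1 higher and 2 lower), 4 with DESeq2, 35 of 1598 with no filter, 13 in the fit over all 76 Ctrl libraries with or without the G number, 1 in the limma fits of the deposited CPM at either pseudocount and in the recovered reads, and 2 without mice 3340 and 3342. Unadjusted p under 0.05 numbered 24 (without mouse 3342) to 60 (without mouse 3340) with a mouse left out, 68 with no replicate block and 41 to 63 in the other fits that filtered low values. The 21 calls of the difference between the arms became 44 with no replicate block and 44 with DESeq2, 3 with raw library sizes, 60 with no filter, 10 with a minimum of 10 counts, 0 to 16 with a Ctrl mouse left out and 2 without mice 3340 and 3342. Differences between the arms turned sign for miR-34c-5p (0.033 with no replicate block, 0.22 without mice 3340 and 3342), miR-296-3p (0.027 and 0.048) and let-7f-5p (-0.059 to 1.19 with a Ctrl mouse left out). The miR-5099 change lay between -0.092 and 0.158 with a mouse left out, and was -0.0094 without mice 3340 and 3342. The differences of miR-126a-3p and miR-126a-5p missed the threshold with raw library sizes and without mouse 3335, that of miR-126a-5p also without mice 3340 and 3342, and that of miR-25-5p in 9 of 13 fits. The causes were not tested. Depth limits miRNAs near 10 CPM, at about 50 counts a library.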
